A study of Bos taurus with 20 samples.

Results

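Interleukins and their receptors were measured in the endometrium of 10 cows, each biopsied once early and once late after calving. The 127 probes examined were the non-control probes whose gene name on the array starts with IL and a digit, out of 43653 probes in all. The chemokine and chemokine receptor names IL8, IL8R, IL8RA and IL8RB were left out. The 127 probes carry 74 names and represent 75 of 25373 genes on the array, because the RefSeq accession of 1 probe named IL6 on the array belongs to a separate gene, LOC517016. In 3 cases RefSeq uses a newer symbol than the array, so that IL1F5 is given as IL36RN, IL1F9 as IL36G and IL28RA as IFNLR1.

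The study followed endometrial gene expression in Bos taurus females after parturition, with both biopsies taken from the same 10 animals. The early biopsies were taken 42 to 86 days after calving (60.1 ± 13.3 days, SD, n = 10) and the late biopsies after 343 to 436 days (388.9 ± 27.5 days, SD, n = 10). Each biopsy was collected with forceps 7 days after oestrus from the uterine horn next to the corpus luteum, so the day of the oestrous cycle was matched between the groups. No treatment, breed, age, parity or pregnancy outcome is given in the labels, and every late sample is also the later and older sample of its cow. Total RNA of each biopsy was labelled with Cy3 and hybridised to 1 Agilent bovine 4x44K array, which gave 20 arrays on 5 slides.

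Interleukins are secreted signalling proteins by which leukocytes, epithelial cells and stromal cells direct one another, and most act through a receptor of a ligand-specific chain joined to a chain shared by a family. The IL-1 family signals through MyD88 and NF-kappa B, the common gamma chain, gp130 and IL-10 families through JAK kinases and STAT proteins, and the IL-17 family through the adaptor Act1. Decoy receptors and binding proteins hold ligand without passing on a signal, and receptor antagonists occupy the receptor without activating it. In the uterus these families are known for the clearance of bacteria and debris after calving and for the control of immune cells in the luteal phase.

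Values are log2 of the scanner's processed signal minus the 75th percentile of the array, so 0 is the signal of a bright probe and each unit down is a halving of signal. They compare a probe with itself between arrays, not one gene with another. A gene was tested if a probe was well above background, by the scanner's own call, on at least 8 of the 20 arrays, which 44 of the 75 genes and 71 of the 127 probes met. Late was compared with early by limma with the cow as a block, and a gene passed if its p-value, Benjamini-Hochberg adjusted over all 19421 genes tested, was below 0.05. Between 71.8% and 80.2% of probes were well above background on each array. The early arrays of cows 4 and 9 stood apart, with median correlations to the other arrays of 0.936 and 0.961 against at least 0.972 for every other array. For some, not all, of the genes with large differences in these cows the change is also given without both. Nothing in the labels names more than 1 biopsy of a cow per period. The p-values of late against early therefore rest on how the within-cow differences spread over these 10 animals.

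Detection is described first, as counts over probes with no test. Of the 34 receptor genes 21 were well above background on all 20 arrays and 2 on none, whereas of the 35 ligand genes 11 were on all 20 arrays and 15 on none. The ligands on all arrays were IL1A, IL1B, IL1F6, IL18 and IL33 of the IL-1 family, IL10, IL12A, IL17D, IL23A, IL16 and IL34. The T helper cell ligands IL2, IL4, IL5, IL17A, IL17F, IL21 and IL22 were not well above background on any array, nor were IL3, IL9, IL12B, IL19, IL20, IL24, IL1F7 and LOC517016. The receptor chains in that state were IL18RAP and IL23R, and among the inhibitors the IL-22 binding protein IL22RA2 joined them. A probe in that state only bounds the signal from above and does not show that the RNA is absent. Another 13 genes were well above background on 1 to 7 arrays and were not tested.

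**Figure D1:**
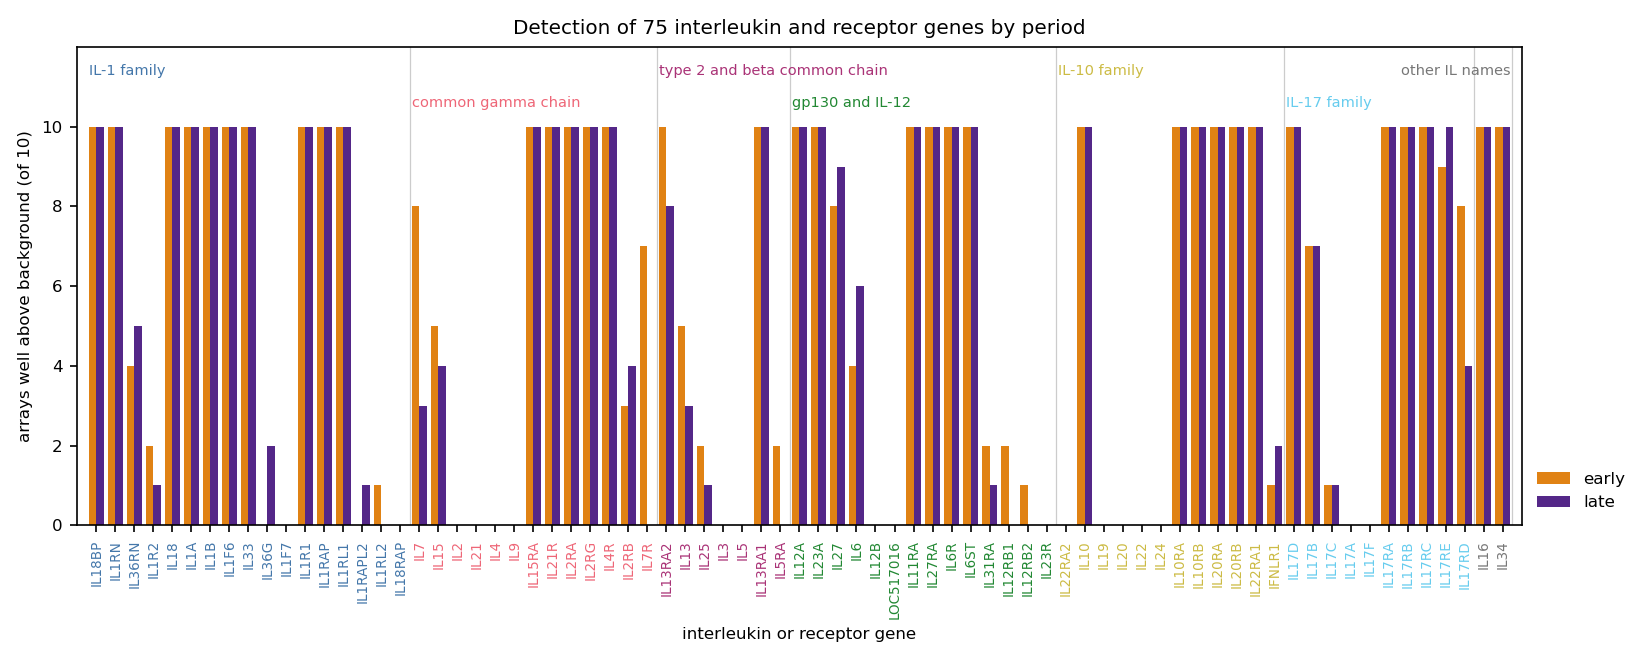
Number of arrays, of 10 per period, on which the probe of highest mean signal of each of the 75 genes was well above background; orange bars are early and purple bars late arrays, and gene names are coloured by family. The bars reach 10 in both periods for 34 genes, stay at 0 in both for 18, and for IL7R reach 7 early and 0 late.

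The common gamma chain family takes its name from the receptor subunit shared by IL-2, IL-4, IL-7, IL-9, IL-15 and IL-21. In it 4 of 6 ligands were on no array, while 5 of 7 receptor chains were on all 20. In the IL-10 family 4 of 5 ligands were on no array and 5 of 6 receptor chains on all 20. Detection differed most between periods in IL7R, the IL-7 receptor alpha chain carried by resting T cells and innate lymphoid cells, which was called above background in 7 early samples and 0 late ones. Its ligand IL7 was so in 8 early and 3 late samples. IL17RD, a modulating IL-17 receptor chain, was so in 8 and 4. These genes were picked for their counts, which carry no test.

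One interleukin gene passed the threshold between the periods, and it fell. That is 1 of 44 genes tested (2.27%), beside 256 of all 19421 genes, of which 1.32% passed in either direction, 0.778% lower and 0.541% higher in the late period. At an unadjusted p-value below 0.05, 10 of the 44 genes were lower and 2 higher, together 27.3%, beside 22.6% of all genes, 10.2% lower and 12.4% higher. Without cows 4 and 9 these counts were 9 lower and 6 higher, beside 8.87% and 12.2% of all genes, without the block 7 and 1, and with slide as a fixed block 0 and 0. The log2 change late minus early was negative in 29 of the 44 genes (65.9%) beside 47.1% of all genes. The median change was -0.09 over the 44 genes and 0.02 over all genes. With normexp background correction 25 of the 44 changes were negative, beside 44.8% of all genes, and with quantile normalization 24, beside 44.6%. Tested probe by probe, 381 of 33763 probes (1.13%) passed, and of the 71 interleukin probes 1 did, that of IL13RA2. The median size of a change regardless of sign was 0.149 in the 44 genes and 0.157 in all genes.

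**Figure D2:**
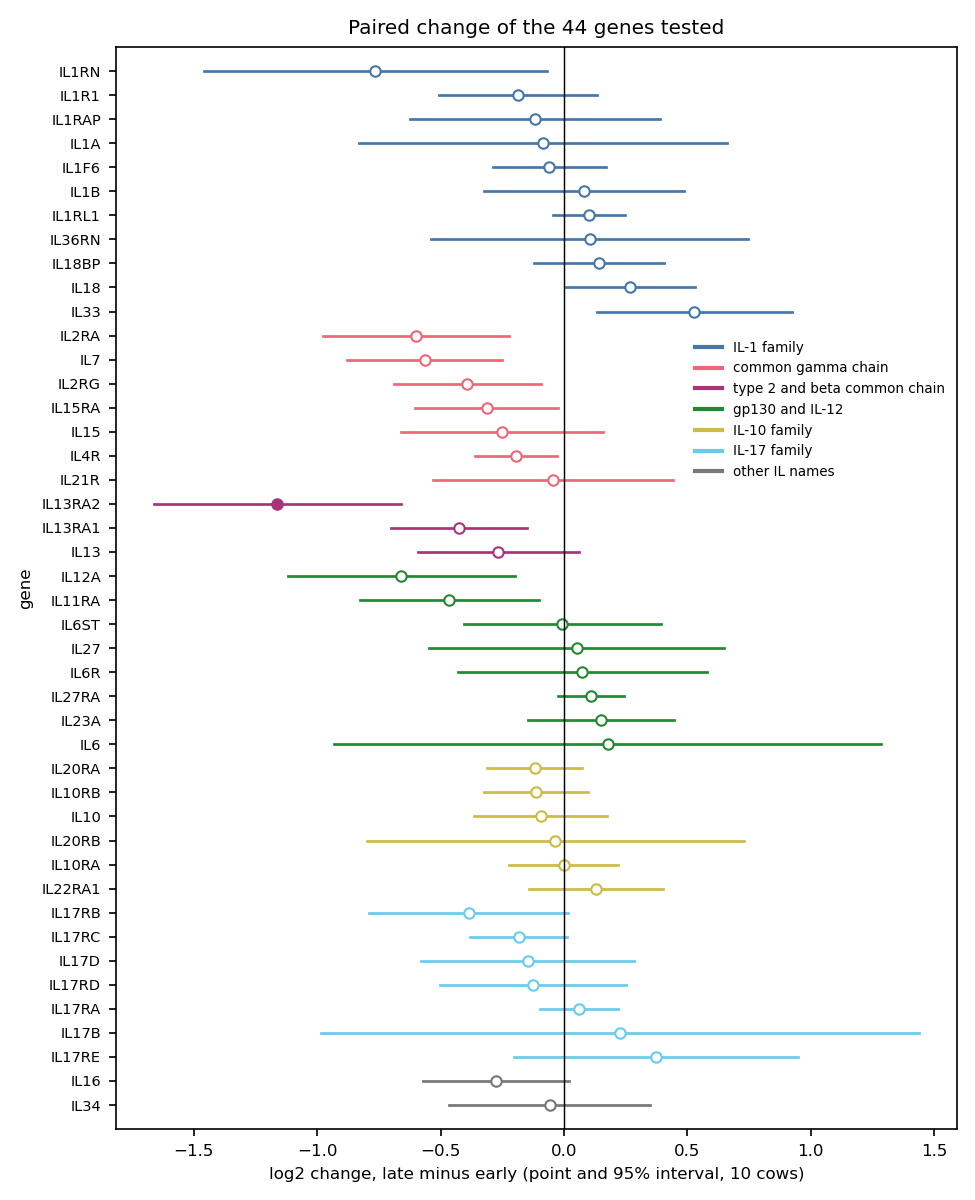
Log2 change, late minus early, of the 44 genes tested, with points for the limma estimate, lines for its 95% interval over 10 cows and colours for families; the filled point passed the adjusted threshold. IL13RA2 at -1.16 is the only filled point, and all 7 genes of the common gamma chain family lie left of 0.

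IL13RA2 encodes the high-affinity IL-13 receptor that is best known as a decoy, since it binds IL-13 while its short tail does not activate STAT6. In the early arrays its signal ranged from -6.81 in cow 5 to -3.41 in cow 10 with a median of -5.27. In the late arrays it ranged from -7.32 in cow 5 to -5.85 in cow 7 with a median of -6.14. The groups overlapped, with 7 early arrays above every late array, and the signal was lower late in 10 of 10 cows. The within-cow differences ran from -2.65 in cow 10 and -1.97 in cow 2 to -0.20 in cow 6. The mean change was -1.16 ± 0.23 (SE, adjusted p = 0.0417), a 2.24-fold lower late signal with a 95% interval of 1.58 to 3.17. The probe was near background, being well above it in all 10 early but 8 late samples. The adjusted p lay close to the threshold, and it stayed below it in only 1 of 10 fits that each left out a cow, that without cow 5 (0.0499847). In the other 9 fits it ran from 0.0500639 without cow 9 to 0.0948922 without cow 8, while the change kept between -1.27 and -0.996. Without cows 4 and 9 the change was -1.22 (adjusted p = 0.0608).

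Most early and late arrays lay on separate slides, and the fall of IL13RA2 did not keep its call when slide was taken into account. Only slide 3 held both periods, with the early arrays of cows 9 and 10 and the late arrays of cows 1 and 2. With slide as a random block the change was -1.18 (adjusted p = 0.0739), and with slide as a further fixed block it was -0.76 (adjusted p = 0.99991). Within slide 3 alone it was -1.83 (adjusted p = 0.609), and no gene of all 19417 fitted passed there or with the fixed block. For most cows period and slide cannot be told apart. Normexp background correction, with an offset of 50 added to the signal, gave -0.43 (adjusted p = 0.0838).

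IL13RA2 had 1 probe, which the array design places at no genomic position. The first 30 of its 60 bases are shown to identify the transcript on which the call rests, with no capitals because no motif is marked.
IL13RA2: cccagtcgtatggccaaatgttagatatga

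The signalling IL-13 receptor chain IL13RA1, which pairs with IL-4 receptor alpha to activate STAT6, was also measured by 1 probe with no genomic position. Its early signals ranged from -4.95 in cow 10 to -3.46 in cow 4 with a median of -4.34, and its late signals from -5.06 in cow 9 to -4.38 in cow 7 with a median of -4.77. The periods overlapped, with 5 early arrays above every late one, and 9 of 10 cows were lower late. The change of -0.43 ± 0.13 (SE) did not pass (adjusted p = 0.0977). It was -0.22 with normexp, -0.26 without cows 4 and 9, and 0.19 with slide as a fixed block. The ligand IL13 itself was close to background, and detected in 5 early and 3 late samples, with a change of -0.27 ± 0.15 (SE, adjusted p = 0.305) and 6 of 10 cows lower late. Normexp turned the sign of IL13 to 0.000577. The epithelial type 2 cytokine IL25 was on 3 arrays and the IL-5 receptor chain IL5RA on 2, and neither was tested.

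**Figure D3:**
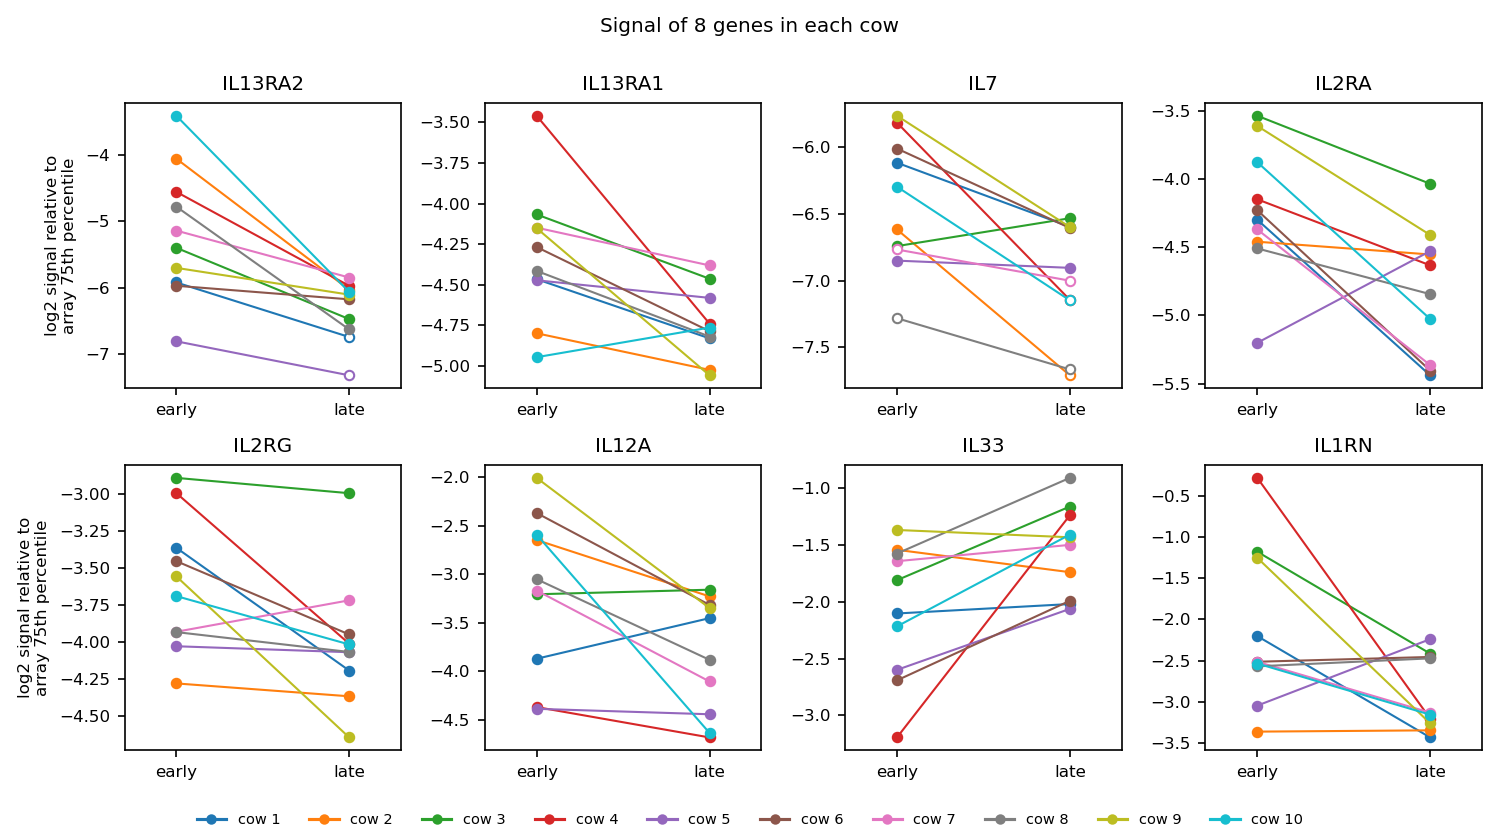
Signal of 8 genes in each cow, as log2 relative to the array's 75th percentile, early and late, with 1 line per cow; open circles mark arrays on which the probe was not well above background. IL13RA2 slopes down in all 10 cows, IL33 slopes up in 8, and the IL1RN lines of cows 4 and 9 drop furthest.

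In the common gamma chain family all 7 genes tested had a negative change, beside 47.1% of all genes, with a median of -0.31. All 3 tested genes of the type 2 family, with a median of -0.43, and both IL16 and IL34 were also negative. Of the 7 genes 5 had an unadjusted p-value below 0.05, beside 10.2% of all genes that were lower by this measure, and the family is described here for its direction, which was seen in the data. None of the 7 passed the adjusted threshold. The receptor chain IL2RB, like IL7R, was outside the tested set and went the other way. It was above background in 3 early and 4 late samples. Its mean signal was -7.08 early and -6.73 late, with 6 of 10 cows higher late. Under normexp and under quantile normalization 6 of the 7 were negative, with medians of -0.18 and -0.26, beside 44.8% and 44.6% of all genes. Without cows 4 and 9, 6 of 7 were negative with a median of -0.25, beside 46.1% of all genes. In that fit 3 were lower at an unadjusted p-value below 0.05, beside 8.87% of all genes. With slide as a fixed block 6 of 7 were negative, beside 50.2% of all genes. None of them had an unadjusted p-value below 0.05 there, beside 0.788% of all genes that were lower by this measure.

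IL2RA encodes the alpha chain (CD25) that gives the IL-2 receptor its high affinity on regulatory and activated T cells. Its signal ranged early from -5.20 in cow 5 to -3.54 in cow 3 with a median of -4.27, and late from -5.44 in cow 1 to -4.04 in cow 3 with a median of -4.74. In cow 5 the late array was the higher one, by 0.67, and in the other 9 cows it was the lower one. The change was -0.60 ± 0.17 (SE, adjusted p = 0.0909), and without cow 5 it passed at -0.74 (adjusted p = 0.0443). A second probe gave -0.34 ± 0.12 (SE). The pair is shown because it reports a change of different size from almost the same place: on Btau_3.1 the probes lie at chr13:16315151-16315210 and chr13:16315202-16315257, plus strand, and capitals mark the 9 bases that both contain. The array files give no exon or UTR for these positions.
IL2RA, last 30 bases of the first probe: ccaagtacaatcagagtccatCATCAGCGT
IL2RA, first 30 bases of the second probe: CATCAGCGTtccctccctgacatgtatgtt

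IL2RG is the common gamma chain itself. Early signals ranged from -4.28 in cow 2 to -2.89 in cow 3 with a median of -3.62, and late signals from -4.65 in cow 9 to -2.99 in cow 3 with a median of -4.04. Cow 3 was highest in both periods, 9 of 10 cows were lower late, and the ranges overlapped. The change was -0.39 ± 0.14 (SE, adjusted p = 0.135), or -0.23 (adjusted p = 0.265) without cows 4 and 9. The other receptor chains gave smaller values: -0.31 ± 0.13 for IL15RA, which presents IL-15 to neighbouring cells, -0.20 ± 0.08 for IL4R, the ligand-binding chain of the IL-4 receptor, and -0.04 ± 0.22 for IL21R.

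IL7 encodes a stromal and epithelial survival factor for lymphocytes. Its early signals ranged from -7.28 in cow 8 to -5.76 in cow 9 with a median of -6.46, and its late signals from -7.71 in cow 2 to -6.53 in cow 3 with a median of -6.95. Of the early arrays 5 lay above every late array, and 9 of 10 cows were lower late, cow 3 being the exception. The change was -0.57 ± 0.14 (SE, adjusted p = 0.0716), the second smallest p-value among the 44 genes, in a probe well above background on 11 of 20 arrays. With normexp it was -0.079 (adjusted p = 0.421), and without cows 4 and 9 -0.44. Its receptor chain IL7R was outside the tested set. Its early signals had a median of -6.54 and its late signals one of -7.49, and in a fit without the filter on dim probes the change was -0.75 ± 0.20 (SE, adjusted p = 0.107) with 8 of 10 cows lower late. No fold is given for IL7R because its mean early signal did not exceed the lowest signals called above background on the late arrays. IL15, which sustains natural killer cells, gave -0.25 ± 0.19 (SE, adjusted p = 0.436).

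In the IL-1 family no gene passed among 11 tested, and the signs were mixed, with 5 changes negative and 6 positive. IL33, an alarmin held in the nuclei of epithelial, stromal and endothelial cells and released by damage, had the largest positive change of the 44 genes. Its signals ranged early from -3.19 in cow 4 to -1.37 in cow 9 with a median of -1.96, and late from -2.06 in cow 5 to -0.91 in cow 8 with a median of -1.47. The late array was higher in 8 of 10 cows, 5 early arrays lay below every late array, and 3 late arrays above every early one. The change was 0.53 ± 0.18 (SE, adjusted p = 0.129), of which cow 4 contributed the largest single difference, 1.95. Leaving cow 4 out gave 0.37 and leaving out cows 4 and 9 gave 0.42. The sign turned with slide as a fixed block (-0.77) and within slide 3 (-0.09), but not with slide as a random block (0.51). A second IL33 probe gave 0.61 ± 0.19 (SE).

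The 2 IL33 probes lie on the minus strand of Btau_3.1 at chr8:40636934-40636993 and chr8:40636738-40636797. A window of each is shown because they measure the RNA at separate places with similar changes; capitals mark AATAAA, the hexamer that precedes many polyadenylation sites, which the script found in the second window.
IL33, first 30 bases of the first probe: ctgctggtgcaacataaaagaggctgggaa
IL33, last 30 bases of the second probe: ttcatattcttaAATAAActgtgtttttca
Of the 127 probes 12.6% contain AATAAA or its reverse complement TTTATT, beside 12.5% of all 43653 probes, all of 60 bases. ATTTA, the core of AU-rich elements, which can overlap TTTATT, or its reverse complement TAAAT was in 17.3% of the 127 probes and 15.1% of all. These shares count letters in the probes, not working sites.

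IL18, which is released by the inflammasome and drives interferon gamma, ranged from -1.89 to -1.01 early (median -1.54) and from -1.63 to -0.68 late (median -1.27). The ranges overlapped widely, and 7 of 10 cows were higher late. Its change was 0.27 ± 0.12 (SE, adjusted p = 0.212), and with slide as a fixed block it was -0.27. IL18BP, the secreted binding protein that neutralises IL-18, gave 0.14 ± 0.12 (SE, adjusted p = 0.495) with 9 of 10 cows higher late. In cow 9 alone it was lower, by 0.88 on the log2 scale. Without cows 4 and 9 the change of IL18BP was 0.25 (adjusted p = 0.108).

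The IL-1 receptor antagonist IL1RN had the second largest negative change of the 44 genes and one of the widest spreads. Its early signals ranged from -3.36 in cow 2 to -0.28 in cow 4 with a median of -2.51. Its late signals ranged from -3.43 in cow 1 to -2.24 in cow 5 with a median of -3.14. The early arrays of cows 4, 9, 3 and 1 were the 4 that lay above every late array, and only 6 of 10 cows were lower late. The change was -0.76 ± 0.32 (SE, adjusted p = 0.188), with -2.92 in cow 4 and 0.81 in cow 5, and a second probe gave -0.58 ± 0.26 (SE). Without cows 4 and 9 the change was -0.34 (adjusted p = 0.401). With slide as a fixed block its sign turned, to 0.85.

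The IL-1 ligands themselves had low average changes over large differences in single cows, for which they are named here. IL1A, a cell-bound alarmin, is an example: its early signals ranged from -4.59 to -0.78 with a median of -4.07, and its late signals from -4.43 to -2.13 with a median of -4.18. Cow 9 was far above the rest early and cow 6 late. The mean change was -0.09 ± 0.34 (SE, adjusted p = 0.901), with -2.92 in cow 9 and 1.53 in cow 6, and it was 0.35 (adjusted p = 0.361) without cows 4 and 9. IL1B, the secreted inflammasome product, ranged from -1.21 to 0.66 early, highest in cow 9, and from -0.93 to -0.03 late, with a change of 0.08 ± 0.18 (SE, adjusted p = 0.819), or 0.33 (adjusted p = 0.159) without cows 4 and 9.

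IL1B had 4 probes, and their changes were 0.08, -0.06, -0.15 and -0.32. The 2 shown lie on the minus strand at chr11:48250103-48250162 and chr11:48250096-48250155 and share a run of 50 bases, of which the part inside both windows is in capitals. They are given as a measure of probe repeatability, since near-identical sequences gave -0.15 ± 0.14 and -0.06 ± 0.14 (SE).
IL1B, first 30 bases of the first probe: attttcgaggTGGCCAGGATATAACTGACT
IL1B, first 30 bases of the second probe: agcTGGCCAGGATATAACTGACTtcagaat
Of the 21 genes with more than 1 probe tested, 9 had probes whose changes differed in sign.

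Among IL-1 family receptors, IL1RL1, the IL-33 receptor ST2, ranged from 4.49 to 5.20 early and from 4.82 to 5.24 late, with medians of 4.90 and 5.02. The lowest array was the early one of cow 4, the same array on which IL33 was lowest. Its change was 0.10 ± 0.07 (SE, adjusted p = 0.387), with a 95% interval for the fold, early over late, of 0.842 to 1.03. IL1R1, the signalling IL-1 receptor, gave -0.19 ± 0.15 (SE, adjusted p = 0.457) and 0.03 without cows 4 and 9. A second IL1R1 probe gave -0.45 ± 0.15 (SE, adjusted p = 0.113 over all probes). On the first IL1R1 probe the highest array was also the early one of cow 4, at -3.99 against an early median of -5.38.

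In the gp130 and IL-12 group, whose receptors share gp130 or resemble it, none of the 8 genes tested passed. IL12A encodes p35, a subunit of both IL-12 and IL-35. Its early signals ranged from -4.39 in cow 5 to -2.01 in cow 9 with a median of -3.11, and its late signals from -4.68 in cow 4 to -3.16 in cow 3 with a median of -3.67. Of the early arrays 5 lay above every late array, and 8 of 10 cows were lower late, most so cow 10 at -2.05 and cow 9 at -1.34. The change was -0.66 ± 0.21 (SE, adjusted p = 0.113), and without cows 4 and 9 it was -0.62. Its partner in IL-12, IL12B, was on no array, and the receptor chains IL12RB1 and IL12RB2 were on 2 and 1 arrays. IL23A, the subunit of IL-23 that also pairs with IL12B, gave 0.15 ± 0.14 (SE, adjusted p = 0.521), and a second probe -0.03 ± 0.12 (SE).

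IL11RA, the receptor of IL-11, a cytokine of decidualisation in the uterus, was bright on every array. It ranged early from 2.61 in cow 7 to 3.75 in cow 9 with a median of 2.80, and late from 2.10 in cow 4 to 3.28 in cow 6 with a median of 2.37. Of the late arrays 7 lay below every early array. The change was -0.46 ± 0.16 (SE, adjusted p = 0.140), with 8 of 10 cows lower late, a second probe at -0.56 ± 0.23 (SE). It was -0.24 without cows 4 and 9 and 0.43 with slide as a fixed block. IL27RA, the IL-27 receptor, gave 0.11 ± 0.06 (SE, adjusted p = 0.310) with 8 of 10 cows higher late. A second IL27RA probe gave -0.13 ± 0.17 (SE). IL6ST, which is gp130 itself, gave -0.01 ± 0.18 and IL6R 0.07 ± 0.23 (SE). Other probes gave -0.28 ± 0.22 and 0.04 ± 0.13 for IL6ST, and -0.29 ± 0.20 for IL6R (SE). Without cows 4 and 9 the change of IL6R was -0.25 (adjusted p = 0.345).

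IL6, an acute-phase and B cell cytokine, is named for its spread. It was detected in 4 early and 6 late samples and ranged from -8.26 to -2.88 early and from -7.56 to -5.02 late. The early array of cow 4 lay far above the others. The change was 0.18 ± 0.51 (SE, adjusted p = 0.858), with -4.01 in cow 4 and 2.08 in cow 7, and it was 0.79 (adjusted p = 0.208) without cows 4 and 9.

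The IL-10 family had no gene past the threshold among 6 tested. The changes of the probes that represent these genes lay between -0.12 and 0.13. IL10, which restrains macrophages and T cells, was the only ligand tested. It ranged from -3.88 to -3.02 early, highest in cow 1, and from -4.00 to -3.33 late, highest in cow 3, with medians of -3.80 and -3.77. Its change was -0.09 ± 0.12 (SE, adjusted p = 0.669), or 0.00424 without cow 1. A second IL10 probe, above background in 6 early and 3 late samples, gave -0.25 ± 0.29 (SE). IL10RB, the chain shared by the receptors of IL-10, IL-22 and lambda interferons, gave -0.11 ± 0.10 (SE). Its other probes gave -0.25 ± 0.10 and -0.22 ± 0.12 (SE). IL20RA, a chain of the IL-19 and IL-20 receptors, gave -0.12 ± 0.09 (SE). IL20RB, its partner chain, is named for 1 array: the early signal of cow 6 was 0.16 beside an early median of -2.56, and the difference in that cow was -3.30.

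In the IL-17 family none of 7 genes tested passed, while IL17A and IL17F were on no array. IL17RB, the receptor of IL-25 and IL-17B on epithelium and type 2 lymphoid cells, ranged from 0.29 to 1.44 early (median 0.95) and from -0.02 to 1.34 late (median 0.47). The ranges overlapped widely, with 8 of 10 cows lower late. Its change was -0.39 ± 0.18 (SE, adjusted p = 0.237). IL17RC, which pairs with IL17RA, gave -0.18 ± 0.09 (SE, adjusted p = 0.250), and its other probes -0.15 ± 0.13 and 0.17 ± 0.25 (SE). IL17RE, the IL-17C receptor, gave 0.37 ± 0.26 (SE, adjusted p = 0.413), with -0.23 under slide as a fixed block.

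The ligand IL17B had the largest spread of within-cow differences among the genes tested, with an SD of 1.96. They ran from -2.59 in cow 4 to 4.74 in cow 7, whose late array at -3.71 stood far above an overall late median of -6.48. Its change of 0.23 ± 0.55 (SE, adjusted p = 0.832) became -0.27 without cow 7 and 0.84 without cows 4 and 9. IL17D, made by non-immune cells, gave -0.15 ± 0.20 (SE, adjusted p = 0.680), and a second probe 0.05 ± 0.12 (SE). Outside the families, IL16, a chemoattractant that binds CD4, gave -0.28 ± 0.14 (SE, adjusted p = 0.249) with 8 of 10 cows lower late and a second probe at -0.61 ± 0.22, and IL34, the alternative ligand of the macrophage receptor CSF1R, -0.06 ± 0.19 (SE, adjusted p = 0.873).

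Differences between cows were large beside the mean change of most genes. The SD across cows was larger early than late in 31 of the 44 genes, with medians of 0.433 and 0.378. This count and the counts by cow below stand without a share over all genes, so they do not set the interleukin genes apart. The largest difference of a gene, regardless of sign, fell in cow 4 for 14 of the 44 genes and in cow 9 for 12. In cow 5 only 15 of the 44 genes were lower late, with a median difference of 0.09, whereas in cow 10 33 were, with a median of -0.30, and in cow 9 31, with a median of -0.51. The early array of cow 4 was the highest of its period for 10 genes, among them IL1RN, IL6, IL1R1, IL13RA1 and IL17B, and the lowest for 9, among them IL33, IL1RL1, IL17D, IL23A, IL34 and IL6R. That of cow 9 was the highest for 11, among them IL1A, IL1B, IL12A, IL11RA, IL7 and IL33.

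**Figure D4:**
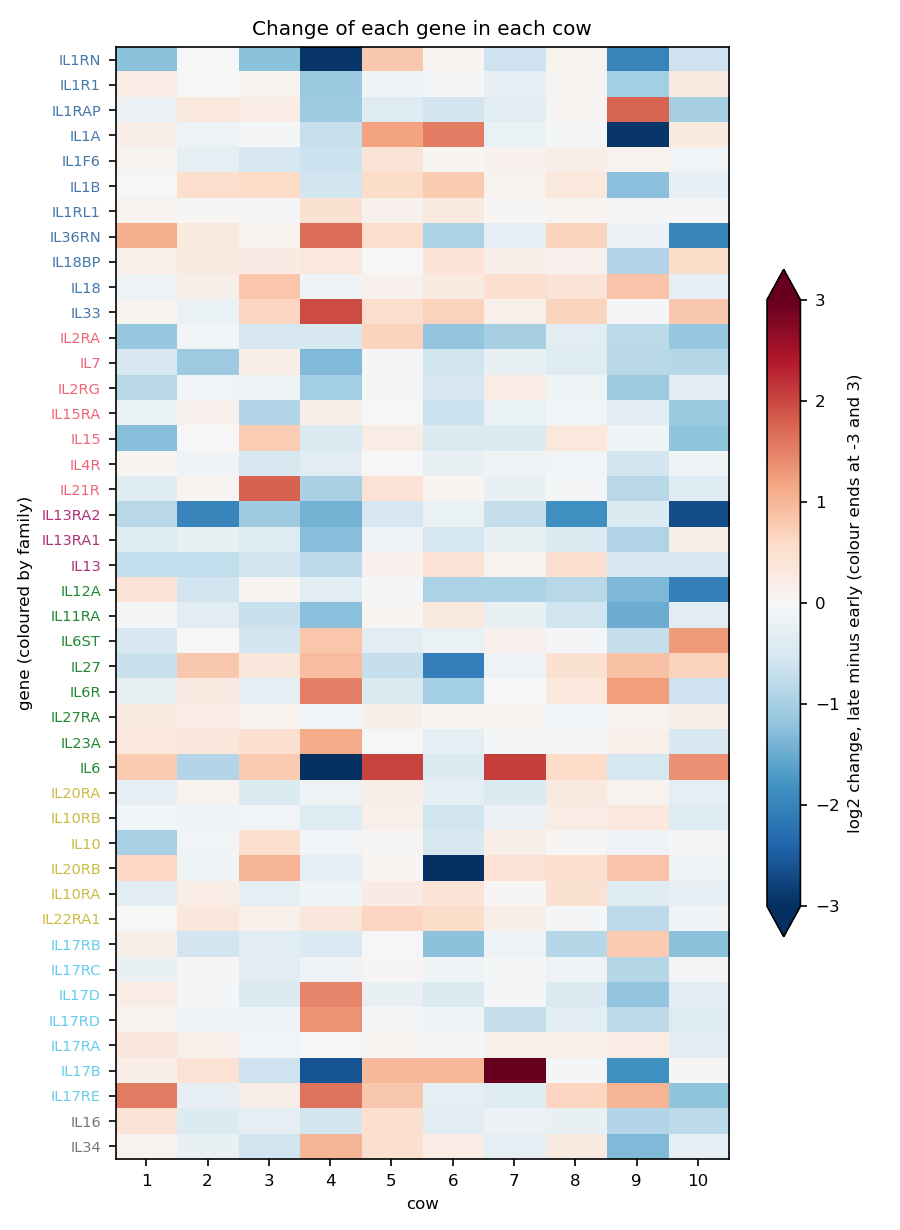
Log2 difference, late minus early, of the 44 genes (rows, names coloured by family) in each of the 10 cows (columns), blue for lower and red for higher late, with colours ending at -3 and 3. The IL13RA2 row is blue in all 10 columns, and the strongest colours of other rows lie mainly in the columns of cows 4 and 9.

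Markers of the cell types that a biopsy can hold were compared between the periods in the same fit. In bulk tissue fewer cells of a type and less RNA per cell cannot be told apart. The counts below stand beside 0.778% of all genes that passed lower late and 0.541% that passed higher. Of 8 macrophage markers tested 4 fell late, CD68 by 1.79, VSIG4 by 1.47, TYROBP by 1.07 and MSR1 by 0.85 on the log2 scale. CD163 had the only positive change of the 8, at 0.12. The log2 of the summed level of all 8 ranged from 2.17 to 4.01 early (median 2.95) and from 1.70 to 3.26 late (median 1.96). This sum was lower late in 10 of 10 cows. Of 8 T and NK cell markers 1 fell, NKG7, by 1.20. Of the 8 changes 6 were negative and 2 positive, CD3D at 0.23 and CD8A at 0.01. The sum ranged from 2.54 to 3.18 early and from 2.67 to 3.06 late. Of 7 stroma markers 1 fell, HAND2, by 0.87, with sums from 8.01 to 8.38 early and from 7.75 to 8.12 late. No marker passed among 5 of mast cells, 5 of neutrophils, 3 of B cells, 6 of epithelium and 4 of endothelium. The sum was also lower late in 10 of 10 cows for mast cells, in 8 for stroma and in 6 for T and NK cells. It was lower late in 5 cows each for B cells and endothelium, and in 3 each for neutrophils and epithelium. The part of these cell types in the falls and the low late values of IL13RA2, IL2RA, IL2RG, IL7 and IL12A was not tested.

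The labelled tissue was checked against its markers: all 6 epithelium and all 7 stroma markers were above background on 20 of 20 arrays. Of the B cell markers CD79A was on 20 arrays, CD79B on 19, MS4A1 on 17 and CR2 on 0. The endothelium markers PECAM1, CDH5, KDR and TEK were each on 20 arrays and VWF on 2. Smallest p-values in the lists with no call were CD79B at -0.13 and MS4A1 at -0.23 for B cells, S100A9 at 0.45 and CXCR2 at 0.12 for neutrophils, TPSB2 at -0.60 and FCER1A at -0.91 for mast cells, KRT18 at 0.42 and KRT8 at 0.26 for epithelium, and CDH5 at -0.29 and TEK at 0.18 for endothelium. On the early array of cow 4 the neutrophil sum was 3.52 beside an early median of -1.07. The epithelium and stroma sums were also the highest of the early arrays there, at 6.30 and 8.38. On the early array of cow 9 the macrophage sum and the T and NK cell sum were the highest, at 4.01 and 3.18. The epithelium sum was the lowest there, at 4.46. On the late array of cow 3, IL21R at -1.30 stood above a late median of -3.56. On that array the sums of every leukocyte list were the highest of the late period. They were 3.26 for macrophages, 3.06 for T and NK cells, 0.96 for B cells, 0.93 for neutrophils and 0.62 for mast cells. Their part in the interleukin values of these arrays was not tested.

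At the adjusted threshold 0.778% of all genes fell late and 0.541% rose. Of the 86 genes tested from lists of interleukin signalling that carry no IL name, 1 fell and none rose. It was CXCL8, the neutrophil chemokine formerly named IL-8 and induced by IL-1 and IL-17, at -1.15 ± 0.23 (SE, adjusted p = 0.0424) with 10 of 10 cows lower late. The array's other CXCL8 probes gave -2.57 and -2.29, and the mean of its probes -2.00. Its call, like that of IL13RA2, was lost with slide in the fit and held in only 1 of 10 fits that left out a cow, that without cow 5 (-1.25, adjusted p = 0.0443). Among receptor partners the smallest p-value was that of OSMR, the oncostatin M receptor, at -0.69 ± 0.20 (SE, adjusted p = 0.0982). Among the 10 JAK and STAT genes tested 8 had negative changes, beside 47.1% of all genes, and none passed. STAT5A, a transducer of IL-2, IL-7 and prolactin signals, gave 0.81 ± 0.23 (SE, adjusted p = 0.0903) with 9 of 10 cows higher late, and passed without cow 7 at 1.05 (adjusted p = 0.00276). JAK1, the kinase bound to the common gamma chain partners, gave -0.16 ± 0.06 (SE, adjusted p = 0.143).

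Of 14 genes tested among SOCS proteins and other inhibitors none passed, with PTPN11 at -0.30 and SOCS5 at 0.24. The 22 transducers of IL-1, IL-18 and IL-17 had a median change of -0.04, with IRAK2 at -0.35 and RELA at -0.14. Of 8 inflammasome and processing genes none passed, with PYCARD at -0.31 and NLRC4 at -0.59. Among the 23 genes known to respond to interleukins, CXCL8 was the 1 that passed, beside 1.32% of all genes, and the median change was -0.17.

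Within each period the arrays spanned a range of days after calving, and slopes were fitted per 10 days. No interleukin gene and no gene of 19421 passed in either period. At an unadjusted p-value below 0.05, 5 of the 44 genes had an early slope, beside 5.66% of all genes, and 0 of the 44 a late slope, beside 1.37%. The smallest early p-values were those of IL2RA at -0.26 ± 0.09 (SE, adjusted p = 0.829) and IL17B at -0.52 ± 0.20 (SE, adjusted p = 0.842) per 10 days. The smallest late ones were those of IL17B at -0.20 ± 0.10 and IL6 at -0.15 ± 0.08 (SE, adjusted p = 0.999954 for both).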

How the data were processed

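Per the labels' protocols, total RNA of 20 biopsies was labelled with Cy3 in a one-colour design. Agilent Feature Extraction 10.5.1.1 is named in the submitters' processing notes. Per the file headers, the deposited intensity values are the processed signal, already background-subtracted, the mean signal and the local background, and probe positions are on the bovine build Btau_3.1. The deposited log2 value table matched the log2 processed signal minus the 75th percentile, centred per probe, with correlations of at least 0.99997 per array and a largest median absolute difference of 0.00268; its column medians lay between -0.15 and 0.05, and it served as an alternative.

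Control and outlier-marked spots were left out, spots of a probe were averaged, and probes well above background on at least 8 of 20 arrays were kept. The probe of highest mean represented a gene. Of the 127 interleukin probes 79 were named by accession through a RefSeq table of ARS-UCD2.0, used for names only, and 4 kept the array's name. No interleukin spot was saturated. A sequence motif was searched on both strands. Limma 3.58.1 (R 4.3.3; lmFit, eBayes, two-sided, Benjamini-Hochberg, threshold 0.05) was fitted with cow as a fixed block; day slopes were fitted per period. The fits were tested on simulated data. Precision is limited by the number of arrays.

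The cow numbers in the titles and the animal numbers pair the samples; the source names of late samples carry other numbers. Deviations from the period means correlated within a cow between -0.11 and 0.76 (median 0.42; above 0.1 in 8 of 10 cows) and had a median of -0.03 between cows.

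The members and all gene lists were chosen with earlier results of these data known. Full values are given for genes past the threshold, the 2 of smallest p per family and role, and the 3 largest rises and falls; other genes singled out were chosen after their values were seen. Alternatives covered pairing, background, scaling, filter, probes, variance, slide and each cow left out; leaving out cows 4 and 9 was added after seeing the data. For 1 signalling list a gene that this rule names is not reported here.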

Additional observations from a re-analysis of the deposited data

Results flagged for a closer look

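Among 88 groups of 10 arrays (44 genes in 2 periods), 13 held 1 array that stood far from the other 9 relative to the range of the group; chance gives about 1 in 20 groups. Values are log2 signals relative to the array's 75th percentile.

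On the early array of cow 4, IL17D (-5.13), IL1RL1 (4.49), IL23A (-3.14) and IL34 (-2.00) were far below the other arrays of the period. On the early array of cow 9, IL1A (-0.78, next highest -3.66) and IL1B (0.66, next highest -0.23) were far above. IL10 stood high on the early array of cow 1 (-3.02) and on the late array of cow 3 (-3.33), where IL21R (-1.30, next highest -3.29) did too. On the late array of cow 6, IL1A was high (-2.13) and IL27 low (-7.48). IL17B was high on the late array of cow 7 (-3.71, next highest -5.81), and IL17RC low on the early array of cow 2 (-3.78).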

How the results depend on the processing

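Without the pairing, that is with no replicate block, 119 genes passed in place of 256, and 0 in place of 1 interleukin gene, IL13RA2 reaching an adjusted p of 0.0933. Interleukin genes past the threshold were also 0 with normexp, no filter (IL13RA2 0.0574), the filter on all 20 arrays (which leaves IL13RA2 out), slide as a fixed or random block, slide 3 alone, and without cows 4 and 9; leaving out each cow gave 0 to 2. All genes past the threshold were 114 with no filter, 35 with slide as a random block, 0 with slide fixed and within slide 3, and 35 to 159 without each cow. Signalling genes past the threshold were 0 with normexp, no filter, the filter on all 20 arrays, each slide setting and without cows 4 and 9, 3 with each probe alone (all of CXCL8), and 0 to 1 without each cow. No day slope passed in any setting run. IL13RA2 kept its call with quantile normalization, the deposited table, the detected-probe median, a trended and robust variance, each probe alone and averaged probes (adjusted p 0.0404 to 0.0448). The share of calls that were higher late was 41.0%, and 53.3% with normexp, 51.7% with quantile normalization, 51.0% with the median of detected probes and 40.8% with the deposited table.

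Of 642 values of named genes under alternatives, 600 kept their direction and side of the threshold and 25 turned sign, none of them past it. With slide as a fixed block these were IL1RN 0.85, IL18BP -0.15, IL33 -0.77, IL18 -0.27, IL1RL1 -0.029, IL1R1 0.24, IL20RA 0.14, IL17B -0.36, IL17RE -0.23, IL23A -0.72, IL11RA 0.43 and IL13RA1 0.19. Within slide 3 they were IL18BP -0.18, IL33 -0.087, IL1RL1 -0.034, IL17B -0.48, IL17RE -0.28 and IL23A -0.080. The others were IL13 0.000577 (normexp), IL27RA -0.0085 (mean of probes), IL1R1 0.031 (without cows 4 and 9), and, with each cow left out, IL10 (-0.16 to 0.00424), IL34 (-0.18 to 0.082, above 0 without cow 3, 0.00142, and without cow 9) and IL17B (-0.27 without cow 7, otherwise up to 0.54). The causes were not tested. Signal over background limits IL13RA2, IL7, IL13, IL15, IL6 and IL17B, which were not above background on every array.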
